A study of Mus musculus with 6 samples.

Results

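The genes described here encode the Sin3 scaffold proteins, the histone deacetylases and the accessory subunits that are found in repressor complexes with KDM5 demethylases. The set was named as 9 genes (Sin3a, Sin3b, Hdac1, Hdac2, Sap30, Sap18, Morf4l1, Phf12 and Gatad1), and its members are the probe sets that the array annotation assigns to 1 of these genes and to no other gene. That gave 17 probe sets of 7 genes, out of 45101 probe sets on the array and 34958 assigned to a single gene. Sap18 and Morf4l1 had no such probe set. Their 5 and 8 probe sets are also annotated to Sap18b, or to Morf4l1b and in part Morf4l1-ps1, and are given below as shared signals that cannot be credited to 1 gene.

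The cells were immortalized KDM5A-/- mouse embryonic fibroblasts of mixed background strain, so every group lacked the endogenous demethylase. They carried an empty vector, re-introduced wild-type KDM5A, or re-introduced KDM5A-H483A, whose name gives an alanine in place of a histidine, one of the residues that bind the catalytic iron. Each of the 3 groups was measured on 2 Affymetrix M430 2.0 arrays of total RNA from subconfluent cultures in serum-containing medium, 6 arrays in all. Arrays of the same group are labelled as biological replicates, with nothing on how the cultures were separated, how many clones were used or which promoter drove the transgene. P-values therefore measure the spread between these samples, which may be technical. In bulk RNA, fewer expressing cells and less RNA per cell cannot be told apart.

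SIN3A and SIN3B are large scaffold proteins without enzyme activity or DNA binding of their own. DNA-binding repressors dock on their paired amphipathic helix domains, and the scaffolds hold HDAC1 and HDAC2, which remove acetyl groups from histone tails. SAP30 and SAP18 are small subunits of the same assembly. MRG15, the product of Morf4l1, reads methylated lysine 36 of histone H3 and joins SIN3B through PF1, the product of Phf12. KDM5A, which removes methyl groups from lysine 4 of histone H3, is found with these proteins, and GATAD1 is a zinc-finger reader protein of the same KDM5A-containing assembly.

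Fibroblast identity was clear in all arrays. All 12 fibroblast markers lay above the upper quartile of genes, while 1 marker of the 7 other cell types did so (Stmn2, of the neural list, 6.90 to 8.03). The summed log2 level of the fibroblast markers was 122 in both second KDM5A arrays and 128 to 132 in the other 4, and the part of this difference in the results below was not tested. The second KDM5A-H483A array stood apart. It was the highest or the lowest of the 6 arrays for 46.2% of all 18194 genes, against 25.2% to 37.9% for each other array. It was also the extreme array for 5 of the 7 member genes and 11 of the 17 member probe sets. The share of genes whose replicate arrays differed by 1 log2 unit or more was 0.148% with empty vector, 1.85% with wild-type KDM5A and 2.40% with KDM5A-H483A, and 0 of the 7 member genes were among them. The brightest Kdm5a probe set stood between 5.83 and 6.11 in all 6 arrays. The sources used here do not say where its probes lie relative to the deletion and the transgene, so it checks neither.

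Levels are log2 RMA values, in which 1 unit is a 2-fold difference. Each gene is represented by its brightest probe set, and differences are between group means of n = 2 arrays with a 95% confidence interval (CI) from limma over all genes. A difference counted as called at a Benjamini-Hochberg adjusted p under 0.05. Limma called 0 of the 7 member genes in any of the 3 comparisons, beside 0 of 18194 genes (0%) in each. At an unadjusted p under 0.05 it gave 0 of 7 members for wild-type KDM5A against empty vector, where 2.52% of all genes passed, and 0 of 7 for KDM5A-H483A against empty vector, where 1.65% passed. Hdac2 and Gatad1, 2 of 7, passed for KDM5A-H483A against wild-type KDM5A, beside 3.81% of all genes. Both adjusted p-values were 0.928.

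**Figure D1:**
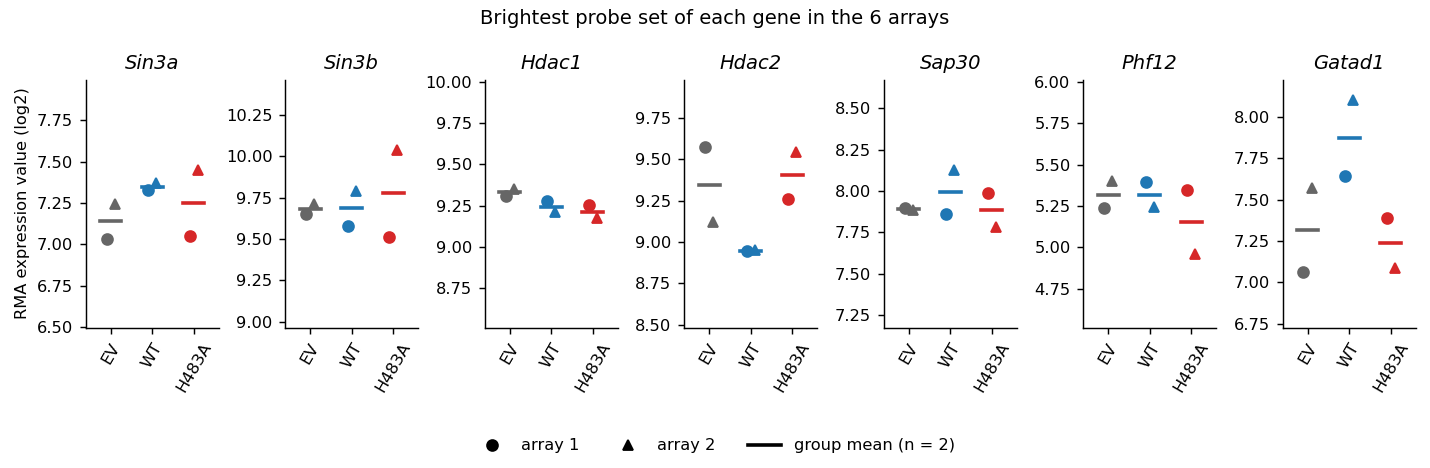
Log2 RMA value of the brightest probe set of each of the 7 genes (vertical axis, spanning 1.5 log2 units in every panel) in arrays of the empty vector (EV), wild-type KDM5A (WT) and KDM5A-H483A groups. Circles and triangles are the first and second arrays and bars are group means (n = 2). Hdac1 spans 0.18 over all arrays, both wild-type KDM5A arrays of Hdac2 lie below the other 4, and both wild-type KDM5A arrays of Gatad1 lie above the other 4.

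In their brightest probe sets the paralogous scaffold genes differed in how their arrays were ordered, but the probe sets within each gene differed too. Sin3a read 7.03 and 7.25 in the empty vector arrays, 7.33 and 7.37 in the wild-type arrays, and 7.05 and 7.45 in the H483A arrays. Both wild-type KDM5A arrays lay above both empty vector arrays, while the mutant arrays spanned nearly the whole range. The difference was 0.21 (CI -0.20 to 0.62) for wild-type KDM5A against empty vector and 0.11 (CI -0.30 to 0.52) for KDM5A-H483A against empty vector, with limma adjusted p of 1 and 0.999. A second probe set of Sin3a (1419101_at) was ordered the same way, at 5.19 and 5.18, 5.49 and 5.46, and 5.13 and 5.50. The third (1419102_at) was not, at 6.03 and 5.40, 5.34 and 5.51, and 5.93 and 5.83. Its wild-type KDM5A mean lay below the empty vector mean by 0.29 (difference -0.29, limma adjusted p = 1 over all probe sets) and its mutant arrays lay above both wild-type KDM5A arrays. With the median of the 3 probe sets in place of the brightest, the Sin3a difference between wild-type KDM5A and empty vector was -0.22. That median is the value of 1419102_at in every array but the first wild-type KDM5A array.

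The brightest probe set of Sin3b read 9.65 and 9.71 in the empty vector arrays, 9.58 and 9.79 in the wild-type arrays, and 9.51 and 10.0 in the H483A arrays. The lowest and the highest value both came from the mutant group, and no group was separated from another. The differences against empty vector were 0.002 (CI -0.47 to 0.47) and 0.09 (CI -0.38 to 0.56), limma adjusted p of 1 and 0.999. Probe sets 1424355_a_at and 1434637_x_at had the same order, with 9.01 and 9.48 in the second mutant array and 8.51 to 8.64 and 8.92 to 9.15 in the other 5. Without that array the difference between KDM5A-H483A and empty vector was -0.17. Probe set 1452849_at instead read 6.25 and 6.37, 6.87 and 6.54, and 6.39 and 6.39, with both wild-type KDM5A arrays on top (difference 0.39 against empty vector, limma unadjusted p = 0.0317, adjusted p = 1 over all probe sets). The fifth, 1425630_at, lay between 4.13 and 4.57, at the 44.7th percentile of probe sets.

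KDM5A itself binds promoters, and its ARID domain is known to prefer the letters CCGCCC. These letters were looked for on both strands, as CCGCCC or GGGCGG, in the 250 bases before each RefSeq transcript start (GRCm38.p6). GGGCGG is also the core of the GC box bound by Sp factors, so a match does not tell these proteins apart. The table held 8 windows of 7 of the 9 named genes, and 7 of the 8 had a match, beside 32.7% of all 32851 windows. The Sap18 window was the one without. GC content of these windows ran from 50.8% to 76%, beside a median of 52.4% over all windows, and they held 8 to 41 CpG dinucleotides, beside a median of 6. At least 8 CpG were held by 43.0% of all windows, and the letters themselves contain a CpG. The share over all windows is therefore not taken from like windows, and enrichment was not tested. Hdac1 and Gatad1 had no entry. Shown 5' to 3' are the windows of both scaffold genes and of Sap30, up to the first base of the gene model. Matches are in capitals. These are core subunits with a match and most of the window before the gene. The Sap18 window also lies wholly before its gene, has no match and is not shown. A second Sin3a window, inside the gene model, held 3 matches and is not shown. The arrays did not measure binding.
Sin3a (chr9:57071790-57071990, plus strand): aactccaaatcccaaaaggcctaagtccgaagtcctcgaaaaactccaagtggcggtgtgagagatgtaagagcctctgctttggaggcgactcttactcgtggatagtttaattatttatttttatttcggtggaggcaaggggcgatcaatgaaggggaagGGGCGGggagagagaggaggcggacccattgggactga
Sin3b (chr8:72723020-72723269, plus strand): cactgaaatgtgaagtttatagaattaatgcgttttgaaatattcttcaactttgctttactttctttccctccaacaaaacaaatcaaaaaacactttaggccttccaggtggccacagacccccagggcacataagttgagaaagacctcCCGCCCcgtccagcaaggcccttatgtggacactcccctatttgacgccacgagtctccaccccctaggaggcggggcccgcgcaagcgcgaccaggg
Sap30 (chr8:57487861-57488110, minus strand): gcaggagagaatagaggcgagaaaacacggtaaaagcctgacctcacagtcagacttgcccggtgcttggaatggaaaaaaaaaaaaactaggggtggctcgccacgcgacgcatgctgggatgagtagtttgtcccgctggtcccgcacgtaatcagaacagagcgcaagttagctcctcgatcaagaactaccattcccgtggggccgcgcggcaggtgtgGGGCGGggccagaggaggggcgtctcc
Each of the 3 sequences holds 1 match. Sin3a and Sap30 carry it as GGGCGG and Sin3b as CCGCCC. Group differences of the 3 genes were 0.21, 0.002 and 0.10 for wild-type KDM5A against empty vector, with limma adjusted p = 1 for each.

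The histone deacetylase genes contrasted in spread. Hdac1 read 9.31 and 9.35 in the empty vector arrays, 9.28 and 9.21 in the wild-type arrays, and 9.25 and 9.17 in the H483A arrays. Its range of 0.18 over the 6 arrays was at the 5.26th percentile of genes, where the median gene spans 0.42. All 4 arrays with a KDM5A form lay below both empty vector arrays, by group differences of -0.09 (CI -0.37 to 0.20) and -0.12 (CI -0.40 to 0.17), limma adjusted p of 1 and 0.999. The comparison of both KDM5A forms gave -0.03 (CI -0.31 to 0.25, limma adjusted p = 0.982).

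Hdac2 had the second widest range of the 7 genes, 0.63. It read 9.57 and 9.12 in the empty vector arrays, 8.95 and 8.95 in the wild-type arrays, and 9.26 and 9.55 in the H483A arrays. The wild-type KDM5A arrays were the lowest of all 6, and the mutant arrays fell within the spread of the empty vector arrays. The group mean was 1.32-fold lower with wild-type KDM5A than with empty vector (difference -0.40, CI -0.85 to 0.05, limma adjusted p = 1). It was 1.37-fold higher with KDM5A-H483A than with wild-type KDM5A (difference 0.46, CI 0.01 to 0.91, limma unadjusted p = 0.0479, adjusted p = 0.928). Both comparisons share the wild-type KDM5A arrays. KDM5A-H483A differed from empty vector by 0.06 (CI -0.39 to 0.51, limma adjusted p = 0.999). Neither difference passed the threshold. The difference between wild-type KDM5A and empty vector was -0.17 without the first empty vector array and -0.62 without the second. With the median of the 3 probe sets the difference between the forms was 0.78. In every array that median is the value of 1449080_at, so it adds nothing to that probe set.

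A second strongly detected Hdac2 probe set (1449080_at) read 8.24 and 7.37, 7.50 and 7.40, and 7.74 and 8.72. Here too both mutant arrays lay above both wild-type KDM5A arrays, by 0.78 between means (CI -0.13 to 1.69, limma adjusted p = 0.927 over all probe sets). The empty vector arrays enclosed the wild-type KDM5A arrays, so the lower wild-type level against empty vector in the brightest probe set was not matched by separated arrays in this one. The remaining probe set (1439704_at) lay between 3.33 and 3.74, at the 25.5th percentile of probe sets, well below the other probe sets of the gene in rank. The brightest probe set carries the suffix _s_at, as does the brightest of Sin3a. The array maker gives this suffix to probe sets matching several transcripts.

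Sap30, which helps join the deacetylases to the scaffold, had 1 probe set. It read 7.90 and 7.89 in the empty vector arrays, 7.86 and 8.12 in the wild-type arrays, and 7.99 and 7.78 in the H483A arrays. The empty vector arrays were level with each other and lay inside the spread of both KDM5A groups. Wild-type KDM5A differed from empty vector by 0.10 (CI -0.25 to 0.45) and KDM5A-H483A by -0.01 (CI -0.36 to 0.35), with limma adjusted p of 1 and 0.999. The forms differed by -0.11 (CI -0.46 to 0.25), with a limma adjusted p of 0.944.

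Phf12, the gene of the adaptor PF1, had a probe set pair, of which the brighter read 5.24 and 5.40 in the empty vector arrays, 5.40 and 5.24 in the wild-type arrays, and 5.35 and 4.96 in the H483A arrays. The second mutant array was the lowest and the other 5 lay between 5.24 and 5.40. The second probe set (1453579_at) read 4.76 and 4.41, 4.35 and 4.42, and 4.70 and 4.004, again with the second mutant array lowest. KDM5A-H483A differed from empty vector by -0.16 (CI -0.57 to 0.24, limma adjusted p = 0.999) in the brighter probe set, and by 0.03 without the second mutant array. Wild-type KDM5A differed from empty vector by 0.0004 (CI -0.41 to 0.41, limma adjusted p = 1).

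Gatad1 had the widest range of the 7 genes, 1.04, at the 94.5th percentile of genes. It read 7.06 and 7.57 in the empty vector arrays, 7.64 and 8.10 in the wild-type arrays, and 7.39 and 7.09 in the H483A arrays. Both wild-type KDM5A arrays lay above the other 4, the lower of them just above the higher empty vector array. The mean was 1.47-fold higher with wild-type KDM5A than with empty vector (difference 0.55, CI -0.02 to 1.13, limma unadjusted p = 0.0565, adjusted p = 1). It was 1.55-fold lower with KDM5A-H483A than with wild-type KDM5A (difference -0.63, CI -1.20 to -0.06, limma unadjusted p = 0.0355, adjusted p = 0.928). The difference between wild-type KDM5A and empty vector was 0.30 without the first empty vector array and 0.32 without the second wild-type KDM5A array. The difference between the forms was -0.40 without the second wild-type KDM5A array. Mutant and empty vector arrays overlapped (difference -0.08, CI -0.65 to 0.49, limma adjusted p = 0.999).

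The other Gatad1 probe set (1425599_a_at) did not show this order. It read 7.004 and 6.90 in the empty vector arrays, 6.63 and 7.31 in the wild-type arrays, and 6.83 and 7.40 in the H483A arrays. Its differences were 0.02 (CI -0.63 to 0.67) for wild-type KDM5A against empty vector and 0.15 (CI -0.50 to 0.80) for KDM5A-H483A against wild-type KDM5A, with limma adjusted p of 1 and 0.960 over all probe sets. The latter has the opposite sign to that of the brighter probe set. The median of both probe sets gave 0.29 and -0.24 for these comparisons. The second array of each KDM5A group was the higher one here, while in the brighter probe set this held for wild-type KDM5A and not for the mutant.

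**Figure D2:**
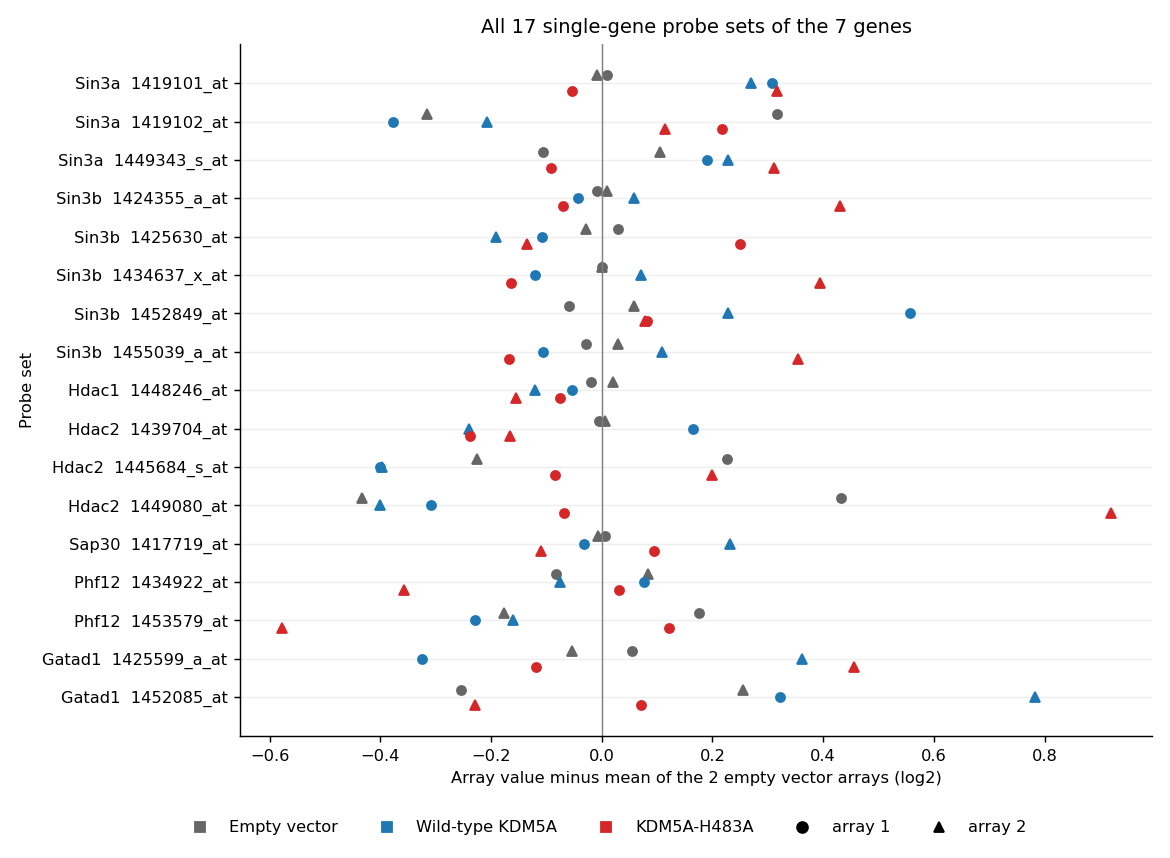
Value of each array minus the mean of the empty vector arrays (horizontal axis, log2 units) for all 17 single-gene probe sets of the 7 genes (vertical axis, gene and probe set). Colours are groups, circles and triangles the first and second arrays. The second KDM5A-H483A array is the highest or lowest point in 11 of the 17, and in each of the 5 genes with more than 1 probe set the order of the group means is not the same in all of them.

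Over the 17 probe sets, limma called 0 of 17 in each comparison, beside 0% of 45037 probe sets. At an unadjusted p under 0.05 it gave 1 for wild-type KDM5A against empty vector (1452849_at of Sin3b), beside 3.02% of all probe sets, and 0 for KDM5A-H483A against empty vector, beside 2.01%. It gave 2 for KDM5A-H483A against wild-type KDM5A, the brightest of Hdac2 and of Gatad1, beside 4.31%. Arrays of the groups did not overlap for 7, 3 and 5 of the 17 in the same order, beside 32.1%, 29.1% and 31.9% of all probe sets.

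Sap18 encodes a ubiquitin-fold subunit that also sits in RNA splicing complexes. Its 5 probe sets are shared with Sap18b. In all 5 the second mutant array lay above both empty vector arrays and above the first mutant array. Probe set 1419445_s_at read 8.95 and 8.95 in the empty vector arrays, 8.86 and 9.21 in the wild-type arrays, and 8.94 and 10.0 in the H483A arrays. Probe set 1419444_at read 7.66 and 7.64, 7.38 and 7.85, and 7.51 and 8.55. The second array was also the higher one of the wild-type KDM5A group in each of the 5. The difference between KDM5A-H483A and empty vector ran from 0.002 to 0.53 over the 5, and groups overlapped in every comparison.

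Of the 8 probe sets shared by Morf4l1 and its copies, 7 showed the opposite order in the mutant group. The brightest, 1455077_a_at, read 13.1 and 13.2 in the empty vector arrays, 13.3 and 13.01 in the wild-type arrays, and 13.2 and 12.6 in the H483A arrays. In 7 of the 8 the second mutant array was the lowest of the 6, and in the remaining one (1456455_at), at the 4.07th percentile of probe sets, all values lay between 2.57 and 2.83. KDM5A-H483A had the lower mean in 8 of 8 against empty vector (differences -0.28 to -0.03) and in 8 of 8 against wild-type KDM5A (-0.42 to -0.20). The probe sets share transcripts and are not independent, and limma called 0 of these 13 shared probe sets, with adjusted p of at least 0.927. In the first mutant array the brightest read 13.2, level with the empty vector arrays.

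**Figure D3:**
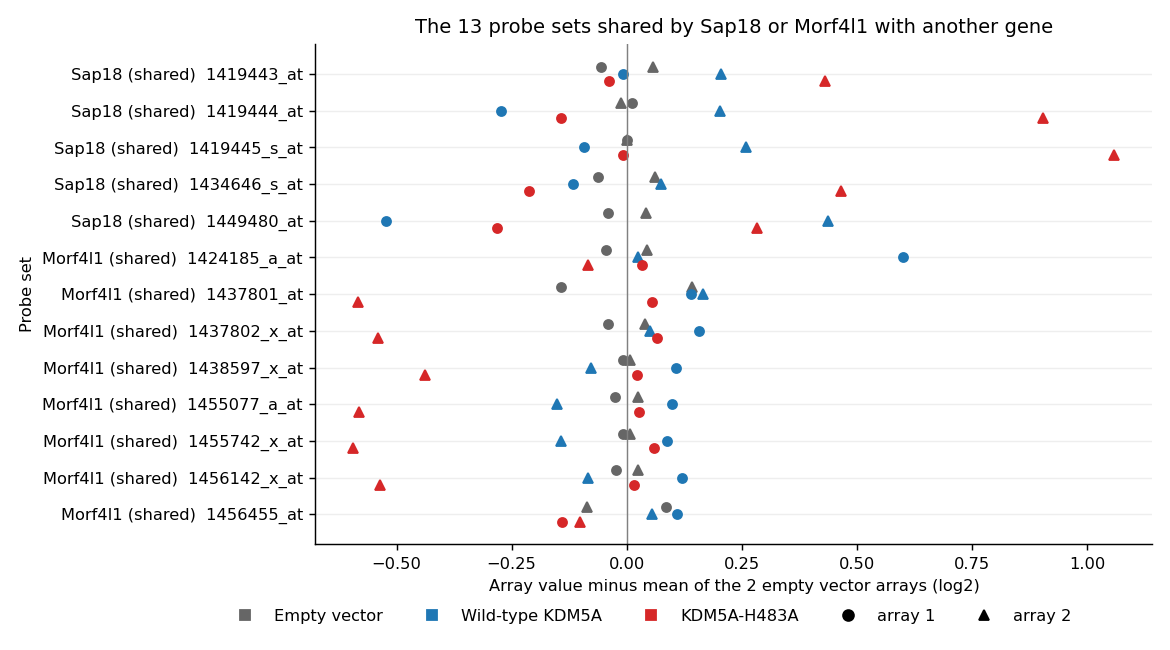
Value of each array minus the mean of the empty vector arrays (horizontal axis, log2 units) for the 13 probe sets annotated to Sap18 or Morf4l1 together with another gene (vertical axis, gene and probe set). Colours are groups, circles and triangles the first and second arrays. The second KDM5A-H483A array lies on the right for the Sap18 probe sets and is the lowest in 7 of the 8 Morf4l1 probe sets.

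Read as a group, the 7 genes had a median difference of 0.002 for wild-type KDM5A against empty vector, with 5 above 0 and 2 below, where the median of all genes was 0.005 and 51.3% lay above 0. For KDM5A-H483A against empty vector the median was -0.01 with 3 above and 4 below, against 0.001 and 50.2% for all genes. For KDM5A-H483A against wild-type KDM5A it was -0.10 with 2 above and 5 below, against -0.01 and 48.4%. The median absolute difference of the members was 0.10, 0.09 and 0.11 in this order, beside 0.11, 0.11 and 0.13 over all genes. Arrays of the groups did not overlap for 4, 1 and 2 of the 7, beside 31.8%, 28.2% and 31% of all genes. With wild-type KDM5A these were Sin3a and Gatad1 above empty vector, beside 16.5% of all genes in that direction, and Hdac1 and Hdac2 below it, beside 15.4%. With KDM5A-H483A it was Hdac1 below empty vector, where 14.6% of all genes lay below and 13.6% above. Between the forms they were Hdac2, higher with the mutant as were 14.9% of all genes, and Gatad1, lower as were 16.1%. The median member had a CI of 0.41 to either side of its difference and the median gene 0.37, so differences of about 0.1 were not detectable with these arrays.

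**Figure D4:**
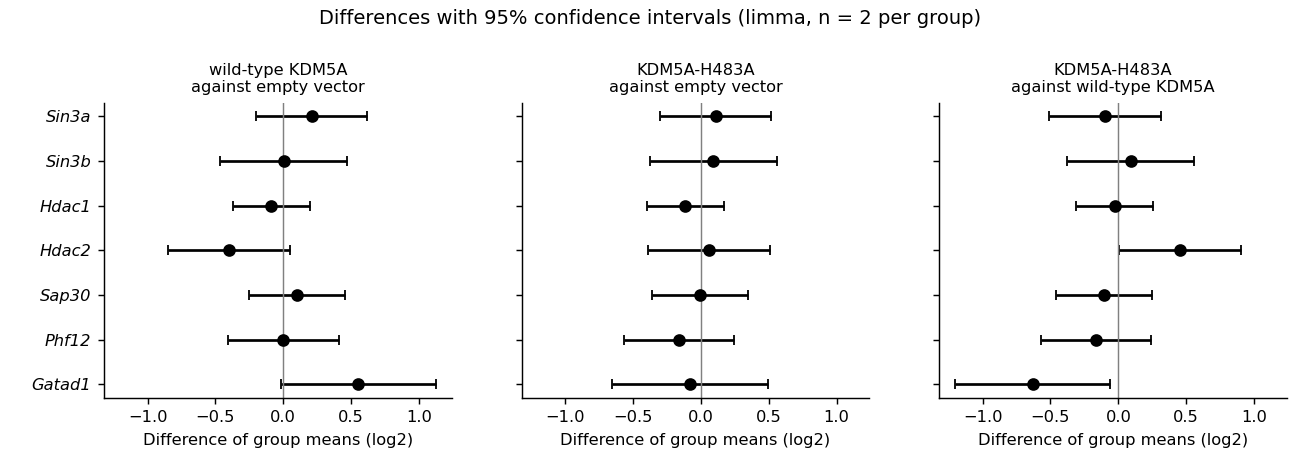
Differences between group means (horizontal axis, log2 units) of the brightest probe set of each gene in the 3 comparisons, with 95% confidence intervals from limma (n = 2 arrays per group). The Hdac2 and Gatad1 intervals for KDM5A-H483A against wild-type KDM5A lie on either side of 0 without including it, and all others include 0.

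Other subunits of the Sin3 complex showed no called gene either. Of 15 listed, 14 were measured and 0 passed in either direction in each comparison. For wild-type KDM5A against empty vector their median was 0.04 with 9 above 0, and the largest differences were those of Suds3, a core subunit (0.35, CI -0.02 to 0.72), and Sinhcaf (0.34, CI -0.44 to 1.12). For KDM5A-H483A against empty vector the median was -0.06 with 6 above 0. The largest differences were those of Rbbp4, a histone chaperone (-0.61, CI -1.52 to 0.29), and Arid4a, a retinoblastoma-binding subunit (-0.59, CI -1.83 to 0.65). Rbbp4 read 8.03 and 9.26 in the empty vector arrays, 8.81 and 8.50 in the wild-type arrays, and 8.12 and 7.94 in the H483A arrays. Its first empty vector array lay between the mutant arrays, and its second was the highest of all. Arid4a read 6.64 and 6.81 in the empty vector arrays, 7.02 and 7.03 in the wild-type arrays, and 7.03 and 5.24 in the H483A arrays, so only the second mutant array lay apart from the others. Between the forms the median was -0.21 with 5 above 0, and Arid4a (-0.89) and Rbbp4 (-0.62) again had the largest differences. Ing2, a reader of methylated lysine 4 of histone H3, was named after its values were seen. It read 5.68 and 5.43, 5.53 and 5.40, and 6.07 and 5.83, with both mutant arrays above the other 4 (difference 0.40 against empty vector and 0.49 against wild-type KDM5A, limma adjusted p of 0.999 and 0.928). Sap130, also named in this way, differed by -0.33 between the forms (limma adjusted p = 0.928).

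The KDM5 family had 4 measured genes, 0 of them called. The largest differences were those of Kdm5c (0.19) and the Y-linked Kdm5d (-0.14) for wild-type KDM5A against empty vector, Kdm5d (-0.49) and Kdm5b (0.22) for the mutant against empty vector, and Kdm5d (-0.36) and Kdm5b (0.28) between the forms.

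HDAC1 and HDAC2 also work in other complexes, and none of the 10 measured NuRD, 10 CoREST and MiDAC or 4 NCoR complex genes was called, the lowest limma adjusted p being 0.928. In NuRD, Mta2 read 7.47 and 8.28 in the empty vector arrays, 8.64 and 8.12 in the wild-type arrays, and 7.87 and 7.72 in the H483A arrays. Its difference was 0.50 (CI -0.21 to 1.21) for wild-type KDM5A against empty vector and -0.59 (CI -1.29 to 0.12) between the forms. Gatad2b, a scaffold subunit, read 7.81 and 8.04, 8.34 and 8.48, and 7.94 and 7.93. Both of its wild-type KDM5A arrays lay above the other 4 (difference 0.49, CI 0.16 to 0.82, limma unadjusted p = 0.0103, adjusted p = 1). For the mutant against empty vector the largest NuRD differences were those of Mbd3 (0.52, CI 0.10 to 0.94) and Chd4, the remodelling ATPase (0.12). In CoREST and MiDAC they were those of Zmym3 (0.24) and Rcor3 (0.23) for wild-type KDM5A against empty vector, and of Dnttip1 (0.31) and Zmym3 (-0.25) for the mutant. Zmym3 (-0.50) and Dnttip1 (0.39) also led between the forms.

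Hdac3, the deacetylase of the NCoR complex, read 8.22 and 8.19 in the empty vector arrays, 8.36 and 8.30 in the wild-type arrays, and 8.08 and 7.91 in the H483A arrays. No group overlapped another. The difference was 0.12 (CI -0.18 to 0.42) for wild-type KDM5A against empty vector, -0.21 (CI -0.51 to 0.09) for the mutant against empty vector, and -0.33 (CI -0.63 to -0.03, limma unadjusted p = 0.0347, adjusted p = 0.928) between the forms. Its partner Tbl1x differed by 0.23 for wild-type KDM5A against empty vector and by -0.29 between the forms, and Gps2 by 0.19 for the mutant against empty vector. Of the 9 other zinc-dependent deacetylases, 0 were called, and besides Hdac3 the largest differences were those of the class II genes Hdac9 (0.37 for wild-type KDM5A and 0.23 for the mutant, each against empty vector) and Hdac4 (0.27 for wild-type KDM5A against empty vector and -0.24 between the forms).

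Of 12 genes for factors that recruit Sin3, 0 were called, and their medians were 0.11, 0.01 and -0.16 in the order of comparisons above. Klf11, a zinc-finger repressor that binds Sin3a, read 5.02 and 4.93 in the empty vector arrays, 5.40 and 5.49 in the wild-type arrays, and 4.89 and 5.19 in the H483A arrays. Both wild-type KDM5A arrays lay above the other 4 (difference 0.47, CI 0.12 to 0.82, limma unadjusted p = 0.0166, adjusted p = 1, and -0.40 between the forms, limma adjusted p = 0.928). Its relative Klf10 differed by 0.46 for wild-type KDM5A against empty vector and -0.33 between the forms. For the mutant against empty vector the largest were those of Mxd3 (-0.31) and Rest (-0.21).

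**Figure D5:**
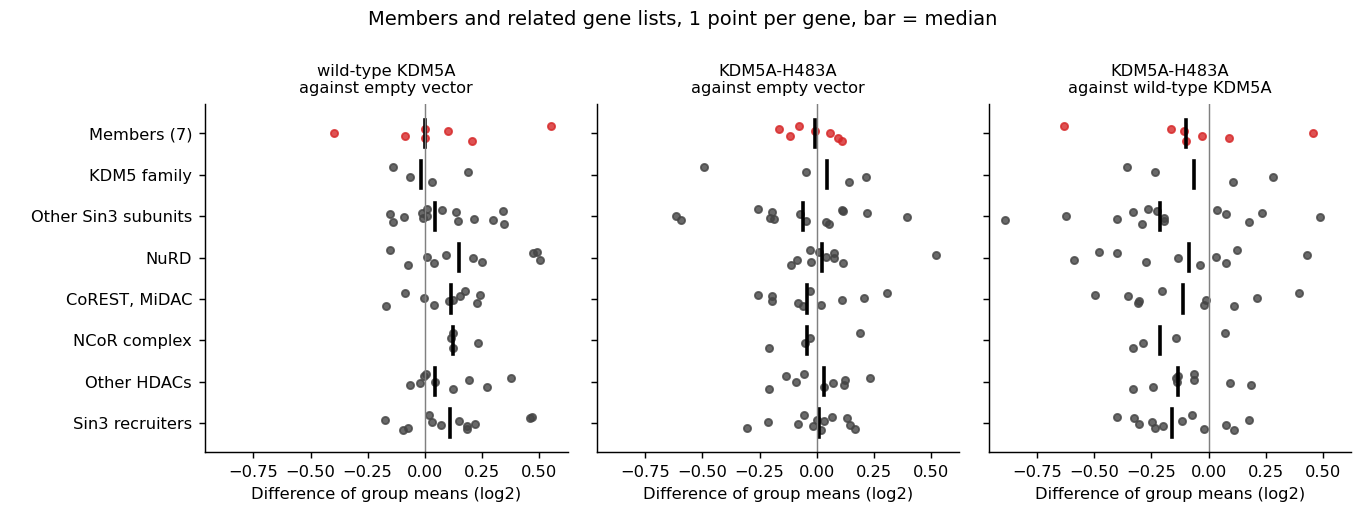
Difference between group means (horizontal axis, log2 units) of each gene in the members and in 7 related lists (vertical axis), in the 3 comparisons. Each point is 1 gene and each bar the median of its list. Medians between the forms lie below 0 for all 8 rows, from -0.07 to -0.21, beside -0.01 over all genes, and 0 genes were called. The rows rest on the same arrays, and Hdac3 is in both the NCoR complex and the other HDAC rows, so they are not independent.

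The array profiles most like those of the members with the widest ranges were ranked over 8860 named genes above the median level, by the root mean square difference over the 6 arrays after each gene's own mean was subtracted. For Hdac2 they were Atg5, an autophagy conjugation gene (0.04), Larp7, which binds the 7SK RNA (0.05), and Rxylt1, a glycosyltransferase gene (0.06), where the median gene was at 0.32. Larp7 read 8.58 and 8.15, 7.85 and 7.95, and 8.17 and 8.54. Its wild-type KDM5A arrays were lowest as for Hdac2, a likeness for which Larp7 was selected. For Gatad1 they were Frk, a SRC-family kinase gene (0.08), Tmem245 (0.09) and the zinc-finger gene Zfp81 (0.09), where the median gene was at 0.39. The ranking rests on 6 arrays and is a description.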

How the data were processed

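The deposited values are log2 signals per probe set. Per the submitters' processing notes they come from RMA, a procedure of background correction, quantile normalization and probe set summary, and its version is not stated in the labels. Array medians lay between 4.55 and 4.60, and the values were used without further scaling. The number of arrays limits the precision. Quantile normalization hides changes in total RNA. Symbols of 34958 single-gene probe sets came from the platform annotation and were updated through Entrez IDs (34754 matched). Each of 18194 genes was represented by its brightest probe set whose ID does not end in _x_at. Limma (version 3.58.1, R 4.3.3) fitted 1 mean per group over all 6 arrays, with 3 residual and 3.42 prior degrees of freedom. Tests were two-sided and adjusted by Benjamini-Hochberg over all genes, or over 45037 probe sets. The procedure was tested on simulated data. The members and lists were chosen with earlier results of these data known. Named were all members, the 2 genes of each list with the largest absolute difference in each comparison, and the 3 profiles most like each of the 2 widest-ranging members. Some genes of the lists are not reported here. Alternatives were the 2 compared groups alone, a replicate block, the median over probe sets, adjustment over every probe set, a level filter, median centring, a variance trend and leaving out each array. Promoter sequences came from RefSeq (GRCm38.p6).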

Additional observations from a re-analysis of the deposited data

How the results depend on the processing

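Limma called 0 genes in each of the 3 comparisons under every alternative run. For the 21 member differences (7 genes in 3 comparisons) 228 alternative values were computed. None passed the threshold, and 203 kept their sign while 25 did not. Many of the 203 could not turn. The compared groups alone, the replicate block and adjustment over every probe set leave each difference as it was. The level filter and the variance trend do so too. The median over probe sets also changes nothing for Hdac1 and Sap30, which have 1 probe set each. The 203 is therefore not a measure of how stable the signs are. Every alternative used the brightest probe set of a gene or the median over its probe sets, and the other probe sets are given with the results. Differences of Gatad1 and Hdac2 that involve wild-type KDM5A kept their sign in the alternatives that could turn it, and their size moved. Leaving out 1 array gave 0.30 to 0.81 for Gatad1 and -0.62 to -0.17 for Hdac2 (wild-type KDM5A against empty vector), and -0.86 to -0.40 and 0.31 to 0.60 between the forms. Other probe sets of both genes turned the sign between the forms, at 0.15 for Gatad1 (1425599_a_at) and -0.16 for Hdac2 (1439704_at). With the median over a gene's probe sets, values of opposite sign were -0.22 for Sin3a and -0.10 for Phf12 (wild-type KDM5A against empty vector), 0.045 for Gatad1 (KDM5A-H483A against empty vector) and 0.38 for Sin3a (between the forms). The disagreement of their probe sets accounts for these by construction. Centring each array on its median moves the difference of every gene in a comparison by the same amount. It gave 0.019 for Sap30 (KDM5A-H483A against empty vector), beside -0.007 without centring. Leaving out 1 array gave, for wild-type KDM5A against empty vector, -0.083 to 0.084 for Phf12, -0.031 to 0.23 for Sap30 and -0.11 to 0.11 for Sin3b. For KDM5A-H483A against empty vector it gave -0.33 to 0.18 for Gatad1, -0.17 to 0.28 for Hdac2, -0.36 to 0.031 for Phf12, -0.11 to 0.10 for Sap30, -0.091 to 0.31 for Sin3a and -0.17 to 0.35 for Sin3b. Between the forms it gave -0.068 to 0.011 for Hdac1, -0.36 to 0.030 for Phf12, -0.24 to 0.024 for Sap30, -0.30 to 0.10 for Sin3a and -0.17 to 0.35 for Sin3b. A lone array was assumed to vary like the other groups. Without the first KDM5A-H483A array, genes at an unadjusted p under 0.05 numbered 2079 against empty vector and 2335 against wild-type KDM5A, and without the second 249 and 396, beside 301 and 694 with all arrays. Groups share replicate numbers. First-minus-second differences correlated across genes at 0.31 between empty vector and wild-type KDM5A and 0.02 between empty vector and KDM5A-H483A. Between the KDM5A forms they correlated at 0.53. The main fit did not pair samples by replicate number, and the replicate block is the alternative that takes it into account. The replicate block called 0 genes in each comparison, with 713, 502 and 922 at an unadjusted p under 0.05 beside 459, 301 and 694 without it, and changed no call of a member.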
